A study of Homo sapiens with 8 samples.

Results

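The mitochondrial ribosomal protein genes studied here are the protein-coding rows of the deposited gene table whose symbol begins with MRPL or MRPS and a number. This choice by name, which used no measured value, gave 78 of 58735 rows. RNA was measured in SV-HUC1 cells, a human urothelial line that was made immortal with SV40 and is otherwise regarded as normal. There were 4 control cultures without treatment and 4 cultures treated with glucose oxidase at 20 mU per ml, all harvested at 24 h in the same serum-containing medium. Glucose oxidase uses up glucose and oxygen and releases hydrogen peroxide. The series holds no group with peroxide alone or with inactivated enzyme, so peroxide, loss of glucose, loss of oxygen and the protein itself cannot be told apart. The labels call the libraries biological replicates 1 to 4 of each group, and the series text speaks of independent experiments on this 1 line. Whether equal numbers mark the same experiment is not stated.

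The mitoribosome is the ribosome inside mitochondria, and it translates the few messages that mitochondrial DNA encodes, all of them for subunits of the respiratory chain and the ATP synthase. Its ribosomal RNAs come from mitochondrial DNA, whereas every one of its proteins is encoded in the nucleus, made in the cytosol and imported. Symbols with MRPL stand for the large subunit, which joins amino acids, and symbols with MRPS for the small subunit, which reads the message. Some of these proteins descend from bacterial ribosomal proteins, and others are found in mitochondria only. Several symbols mislead about the place of the protein. MRPS30 and MRPS18A encode proteins of the large subunit, and MRPS36 encodes a subunit of the 2-oxoglutarate dehydrogenase complex, so it is kept apart here. By this division 51 genes belonged to the large subunit (30 with a bacterial counterpart, 21 without), 26 to the small subunit (16 and 10), and MRPS36 stood alone.

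Libraries held 21437267 to 27183692 counts, of which the 78 genes took 0.613% to 0.793% in controls and 0.480% to 0.706% in treated cultures. The keratins KRT7, KRT8 and KRT19 and the adhesion molecule EPCAM were present in every library, at 236 CPM or more (counts scaled to a common library size). Of the 12 markers of fibroblasts, endothelial cells and leukocytes, 10 stayed below 0.5 CPM in every library, and COL1A1 (13.4 to 30.5 CPM) and CDH5 (1.70 to 4.92 CPM) were above it. The 5 fibroblast markers summed to 13.5 to 27.7 CPM in controls and 13.6 to 30.5 CPM in treated cultures. TP63, a factor of basal cells that was counted among the epithelial markers, was close to absent at 0.0426 to 1.40 CPM. The 10 epithelial markers summed to 4300 to 8665 CPM in controls and 3998 to 5458 CPM in treated cultures, and their part in the results below was not tested. In bulk RNA, fewer cells and less RNA per cell cannot be told apart.

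Most of the 78 genes were lower after glucose oxidase, by a modest amount, and no gene of the family separated the groups by its libraries alone. When edgeR's quasi-likelihood fit took the replicate number as a block, 70 of 78 genes had a log2 change below 0, against 8830 of the 17413 genes tested. Their median log2 change was -0.25, against -0.01 over all genes tested. With a Benjamini-Hochberg adjusted p below 0.05 in that fit, 21 genes fell (26.9% of the family), where 6.97% of all genes tested fell. MRPL10 alone rose, where 7.51% of all genes tested rose. The verbs "fell" and "rose" refer to this blocked fit throughout. The 21 genes were, from the largest change to the smallest, MRPL23, MRPL48, MRPL51, MRPL33, MRPL54, MRPL27, MRPL13, MRPS14, MRPL20, MRPL11, MRPL52, MRPS33, MRPL36, MRPL47, MRPL14, MRPS34, MRPL24, MRPL1, MRPS23, MRPS18C and MRPS28. Their log2 changes ran from -0.75 to -0.43 with a median of -0.51. MRPS18C, MRPL24, MRPS28, MRPL1 and MRPS23 lay just inside the threshold, at adjusted p from 0.0368 to 0.0466, and MRPL21, MRPL9, MRPS12 and MRPS7 just outside it, from 0.0513 to 0.0628.

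These calls depend on treating the replicate number as a pair. Without the block, edgeR called 0% of the 17413 genes at an adjusted p below 0.05 and hence none of the 78, and DESeq2 without a block also called none of them. At an unadjusted p below 0.05, edgeR without the block put 2 of the 78 lower (MRPL23 and MRPL54), against 3.58% of all genes, and none higher, against 3.79%. The medians of the family were alike in both edgeR fits, at -0.27 without the block, against -0.03 over all genes tested. Of the 78 genes, 72 had a log2 change below 0 in the authors' deposited table and 6 above 0, with a median of -0.28 and a smallest adjusted p of 0.486. DESeq2 run here without a block, and without a filter on low counts, gave the family the same median, against -0.12 over all its genes. For edgeR, likewise without block and filter, the medians were -0.25 for the family and -0.08 over all genes. These all-gene medians take in genes beyond the 17413, and the part of the filter was not tested. The share of all genes below 0 in the authors' table was not counted. The authors' deposited table called 0.207% of its genes at an adjusted p below 0.05, with no family member among them, and 2 members (MRPL23 and MRPL54) had an unadjusted p below 0.05.

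**Figure D1:**
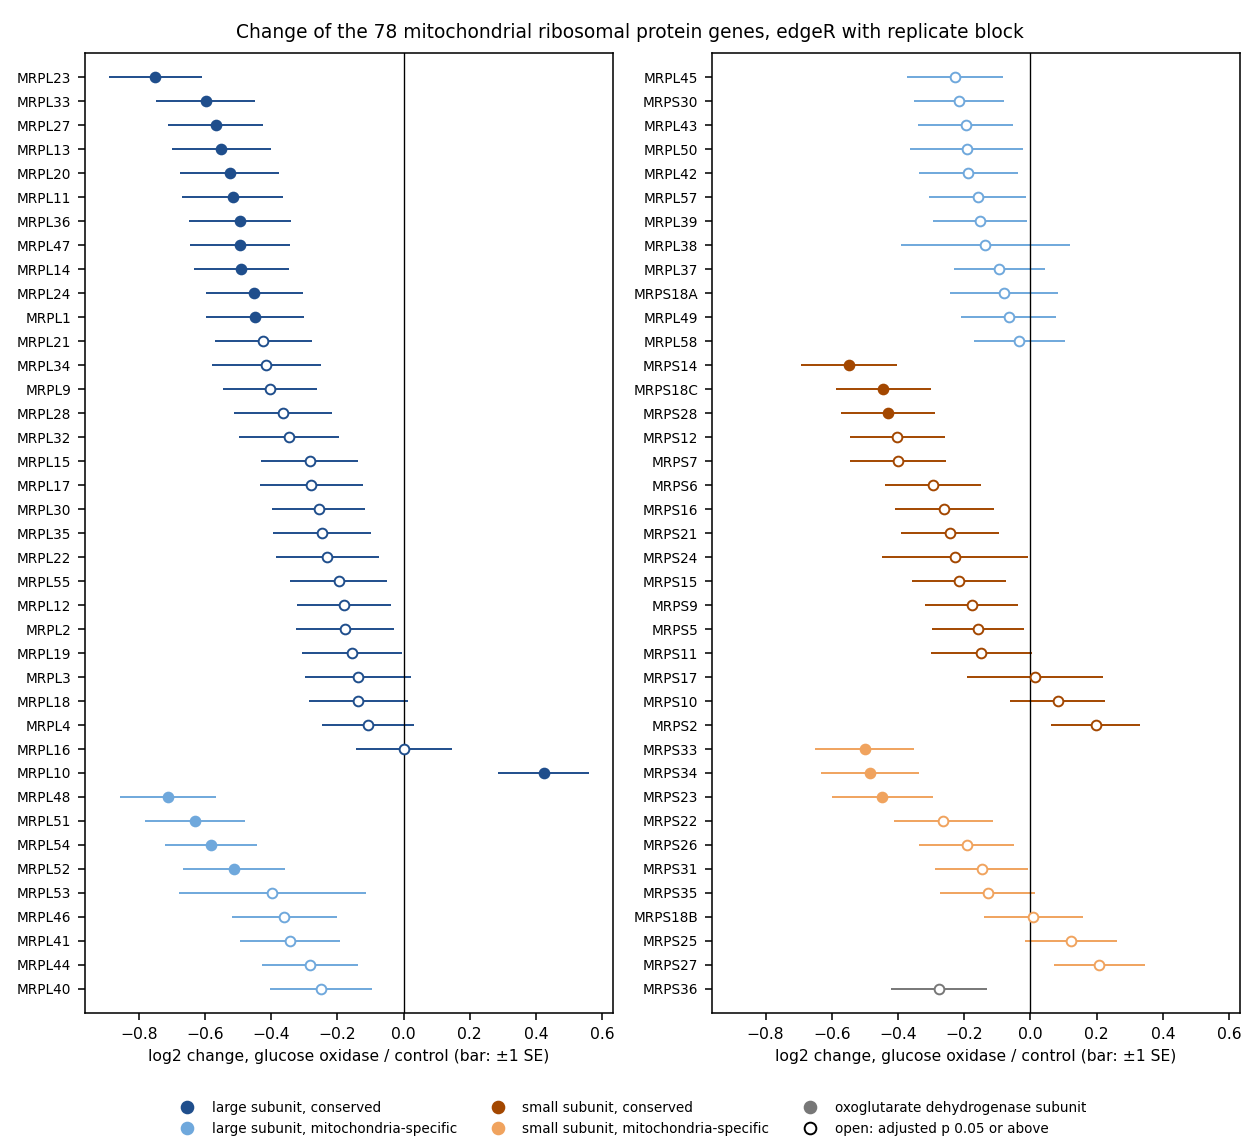
Log2 change with glucose oxidase for each of the 78 genes (x axis, edgeR with replicate block, bars of 1 SE), grouped and coloured by subunit and by whether a bacterial counterpart exists, with filled points for an adjusted p below 0.05. All but 8 points lie left of 0, from -0.75 for MRPL23 to 0.42 for MRPL10.

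By role, the genes of conserved large-subunit proteins held most of the calls. Of these 30 genes 11 fell and 1 rose, with a median log2 change of -0.36. Of the 21 genes of large-subunit proteins without a bacterial counterpart 4 fell, with a median of -0.22 and all 21 values below 0. In the small subunit, 3 of 16 conserved genes fell (median -0.24) and 3 of 10 mitochondria-specific genes fell (median -0.17). MRPS36, the dehydrogenase subunit, was at a log2 change of -0.28 (adjusted p 0.209). Whether these classes differ from one another was not tested.

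Promoters of some of the genes that fell, and of a gene that was not called, are shown first for the letters they hold. For 69 of the 78 genes the RefSeq promoter table (build GRCh38.p14) held at least 1 promoter of 250 bases before to 50 bases after the start. MRPL10, MRPL13, MRPL15, MRPL2, MRPL21, MRPL23, MRPL35, MRPS28 and MRPS36 are named only. The printed windows run from 80 bases before the start to the first 30 bases of the transcript, for the start nearest that of the principal transcript. Capitals mark, on either strand, CCGGAAG, core letters bound by ETS factors such as GABPA, AAGATGG, part of a YY1 site, or TGCGCA, the repeated part of an NRF1 site. MRPL48 (chr11:73787794-73787903, plus strand), MRPL27 (chr17:50373155-50373264, minus strand), MRPL33 (chr2:27771639-27771748, plus strand), MRPL20 (chr1:1407264-1407373, minus strand), MRPL54 (chr19:3762602-3762711, plus strand) and MRPS34 (chr16:1773105-1773214, minus strand) fell and hold the ETS letters near the start, MRPL20 with the YY1 letters as well. MRPL36 (chr5:1799808-1799917, minus strand) fell and holds the YY1 and NRF1 letters, MRPS14 (chr1:175023396-175023505, minus strand) fell with none of these letters, and MRPS2 (chr9:135499885-135499994, plus strand) was not called and has none. The printed genes are a selection that does not show how often letters and falls go together. MRPL1, MRPL14 and MRPL24 also fell with none of these letters in this window. MRPL3, MRPL16, MRPS10 and MRPS26 were not called and hold the ETS letters there.
MRPL48: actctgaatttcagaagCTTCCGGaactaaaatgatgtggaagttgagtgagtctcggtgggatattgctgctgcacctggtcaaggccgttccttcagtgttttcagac
MRPL27: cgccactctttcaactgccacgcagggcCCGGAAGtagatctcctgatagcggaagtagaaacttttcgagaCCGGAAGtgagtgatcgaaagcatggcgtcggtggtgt
MRPL33: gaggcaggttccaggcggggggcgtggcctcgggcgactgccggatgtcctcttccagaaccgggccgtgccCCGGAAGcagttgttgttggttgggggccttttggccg
MRPL20: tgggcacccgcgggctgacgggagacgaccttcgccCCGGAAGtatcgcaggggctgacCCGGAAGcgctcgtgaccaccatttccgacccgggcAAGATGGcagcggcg
MRPL54: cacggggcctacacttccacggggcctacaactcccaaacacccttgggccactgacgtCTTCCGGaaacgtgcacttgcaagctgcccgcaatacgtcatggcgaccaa
MRPS34: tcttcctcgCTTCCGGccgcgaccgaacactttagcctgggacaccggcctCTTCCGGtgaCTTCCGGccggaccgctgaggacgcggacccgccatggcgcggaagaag
MRPL36: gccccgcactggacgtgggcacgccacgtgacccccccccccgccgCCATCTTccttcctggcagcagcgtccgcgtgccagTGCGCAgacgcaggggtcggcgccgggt
MRPS14: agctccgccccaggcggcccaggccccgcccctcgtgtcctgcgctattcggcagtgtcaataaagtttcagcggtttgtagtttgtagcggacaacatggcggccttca
MRPS2: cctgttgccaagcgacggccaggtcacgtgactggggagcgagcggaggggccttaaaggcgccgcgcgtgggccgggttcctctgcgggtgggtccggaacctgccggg

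Over the whole windows, CCGGAAG stood in 33 of 85 promoters of the family (38.8%), against 12.9% of 21021 promoters of protein-coding genes and 10.3% of all 35116 promoters. AAGATGG stood in 27 of 85 (31.8%), against 6.09% of protein-coding promoters and 5.84% of all. It contains ATG and can hold a start codon. TGCGCA, which reads alike on both strands, stood in 17 of 85 (20.0%), against 9.90% and 8.24%. No matches of different motifs shared bases in these 85 promoters. With 1 promoter per gene, CCGGAAG was found for 12 of the 18 genes that fell and have a promoter in the table, and for 18 of the 51 that were not called. AAGATGG was found for 6 and 17 of them. These shares describe letters in a window, and neither the binding of a factor nor the difference between the genes that fell and the others was tested.

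Among the genes of conserved large-subunit proteins, MRPL23 changed most. It encodes a protein at the exit of the tunnel through which the new chain leaves, and lies at chr11:1947278-1984522 on the plus strand (positions of genes are those of the deposited table, build GRCh38.p13). Its TMM-scaled CPM was 38.6, 27.2, 57.2 and 45.6 in controls 1 to 4 and 23.6, 14.5, 29.6 and 33.6 in treated cultures 1 to 4. Each treated culture was below the control of the same number, yet control 2 lay below treated 3 and 4, so the groups overlap. Controls averaged 42.2 ± 12.6 CPM and treated cultures 25.3 ± 8.30 CPM (SD, n = 4 each). The log2 change was -0.75 ± 0.14 (SE), a fold of 0.595, with an adjusted p of 9.7e-04. MRPL33 and MRPL27 belong to the same class, and the MRPL27 protein reaches toward the catalytic centre. MRPL33 was at 86.8, 51.3, 180.7 and 108.8 CPM in controls against 57.9, 31.0, 94.9 and 97.9 CPM after treatment. Control 3 stood highest and treated 2 lowest, and the log2 change was -0.60 ± 0.15 (adjusted p 0.00778). Of the exon bases of MRPL33, 21.1% are shared with BABAM2 on the same strand. MRPL27 was at 92.8, 57.6, 170.6 and 123.3 CPM in controls against 66.4, 43.0, 89.4 and 91.5 CPM after treatment, a log2 change of -0.57 ± 0.14 (adjusted p 0.00881). MRPL13, at 136.2, 88.1, 254.0 and 168.5 against 97.8, 50.4, 148.5 and 152.6 CPM, changed by -0.55 ± 0.15 (adjusted p 0.0145). In these 4 genes every pair was lower, and pair 4 by the least except in MRPL27. The other conserved large-subunit genes that fell, MRPL20, MRPL36, MRPL47, MRPL14, MRPL24 and MRPL1 beside MRPL11, had log2 changes of -0.53 to -0.45.

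The stalk of the large subunit, on which the translation factors dock, did not move as a unit. MRPL11 encodes a protein of its base and fell. It was at 194.4, 115.4, 324.0 and 214.9 CPM in controls against 139.2, 82.1, 174.2 and 187.6 CPM after treatment, a log2 change of -0.52 ± 0.15 (adjusted p 0.0222). MRPL10, which anchors the stalk, was the only gene of the family that rose. It was at 24.4, 34.9, 22.2 and 22.6 CPM in controls against 34.7, 52.1, 26.4 and 28.7 CPM after treatment. Every treated culture was above its control, the groups overlap through control 2, and the log2 change was 0.42 ± 0.14 (adjusted p 0.0367). That call was lost in each of the 4 blocked fits without 1 replicate number and in the blocked fit without a filter on low counts. MRPL12, the mobile stalk protein, was at 70.3, 58.0, 60.6 and 47.7 against 69.1, 46.5, 42.8 and 51.9 CPM, with a log2 change of -0.18 (adjusted p 0.432). Of its exon bases, 68.2% are shared with AC139530.2, an overlapping gene model on the same strand, so its count is uncertain.

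In a list of 6 genes around the tunnel exit (MRPL22, MRPL23, MRPL24, MRPL39, MRPL44 and MRPL45), MRPL23 and MRPL24 fell, and MRPL47, whose protein also lies near the exit but which the list leaves out, fell as well. In the central protuberance, the crest of the large subunit, 2 of 8 fell, MRPL48 and MRPL27. MRPL45, whose protein sits near the exit and holds the ribosome to the inner membrane, was at 67.3, 57.2, 147.8 and 118.6 CPM in controls against 67.7, 57.6, 95.7 and 96.5 CPM after treatment. Pairs 1 and 2 were level and pairs 3 and 4 were lower, and the log2 change of -0.23 had an adjusted p of 0.321. The log2 change of MRPL44, whose protein folds like an RNase III enzyme, was -0.28 (adjusted p 0.197). MRPL58, a peptidyl-tRNA hydrolase built into the large subunit, was at 77.3, 64.6, 75.3 and 62.3 against 79.3, 60.3, 63.9 and 69.8 CPM, a log2 change of -0.03 (adjusted p 0.905). The core proteins MRPL2, MRPL3 and MRPL4, which bind the ribosomal RNA, had log2 changes of -0.18, -0.14 and -0.11, with adjusted p of 0.464, 0.621 and 0.667.

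Of the large-subunit genes without a bacterial counterpart, MRPL48, MRPL51, MRPL54 and MRPL52 fell. MRPL48 lies at chr11:73787316-73865133 on the plus strand. It was at 32.8, 17.3, 86.3 and 64.9 CPM in controls against 15.9, 12.6, 45.7 and 48.7 CPM after treatment. Controls 3 and 4 and treated 3 and 4 all lay above the other 4 libraries, so the set of replicates separated them and the treatment did not. The log2 change within pairs was -0.71 ± 0.15 (adjusted p 0.00186). MRPL51 was at 131.3, 69.7, 242.5 and 153.0 against 83.0, 50.2, 113.9 and 125.0 CPM, a log2 change of -0.63 ± 0.15 (adjusted p 0.00632), and shares 31.3% of its exon bases with another gene. MRPL54 was at 47.1, 24.5, 34.5 and 28.1 against 28.5, 17.4, 20.1 and 22.5 CPM, a log2 change of -0.58 ± 0.14 (adjusted p 0.00615). In MRPL54 control 1 stood highest, unlike MRPL48 and MRPL51, in which control 3 did. The log2 changes of MRPS30 and MRPS18A, large-subunit proteins by place, were -0.21 and -0.08 (adjusted p 0.309 and 0.797).

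In the small subunit, MRPS14, MRPS18C and MRPS28 of the conserved proteins fell. MRPS28 shares 35.8% of its exon bases with AC036214.3, a gene model on the same strand. MRPS14, a protein of the head, was at 71.4, 45.1, 134.1 and 88.3 CPM in controls against 49.2, 30.7, 71.6 and 77.1 CPM after treatment, a log2 change of -0.55 ± 0.14 (adjusted p 0.0118). The family holds 3 paralogs of bacterial S18. MRPS18C, which takes the place of the bacterial protein, was at 86.1, 64.8, 111.8 and 81.3 against 70.0, 38.2, 74.9 and 73.7 CPM, a log2 change of -0.44 (adjusted p 0.0368), with 40.2% of its exon bases shared with another gene. MRPS18B was at 118.2, 97.3, 134.0 and 116.9 against 114.9, 130.2, 104.3 and 118.1 CPM, a log2 change of 0.01 (adjusted p 0.978). The treated cultures of MRPS18B lie inside the range of its controls. The difference between the paralogs was not tested. For MRPS12, part of the decoding centre, and MRPS7, one of the first proteins to join the head, the log2 change was -0.40 each (adjusted p 0.0579 and 0.0628), and for MRPS16 it was -0.26 (adjusted p 0.258). MRPS2, at 50.7, 64.6, 51.3 and 59.5 against 62.3, 77.1, 56.8 and 63.2 CPM, was higher in all 4 pairs, with a log2 change of 0.20 (adjusted p 0.360).

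MRPS33, MRPS34 and MRPS23 fell among the mitochondria-specific small-subunit genes. MRPS34, needed for a stable small subunit, lies at chr16:1771890-1773155 on the minus strand. It was at 139.4, 112.4, 196.7 and 151.5 CPM in controls against 100.3, 71.6, 120.7 and 141.1 CPM after treatment, a log2 change of -0.48 ± 0.15 (adjusted p 0.0270). Treated 4 lay between controls 1 and 4, treated 3 between controls 2 and 1, and treated 1 and 2 below all controls. The log2 change of MRPS22 was -0.26 (adjusted p 0.256). MRPS27, which binds RNA, was higher in all 4 pairs, at a log2 change of 0.21 (adjusted p 0.333).

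**Figure D2:**
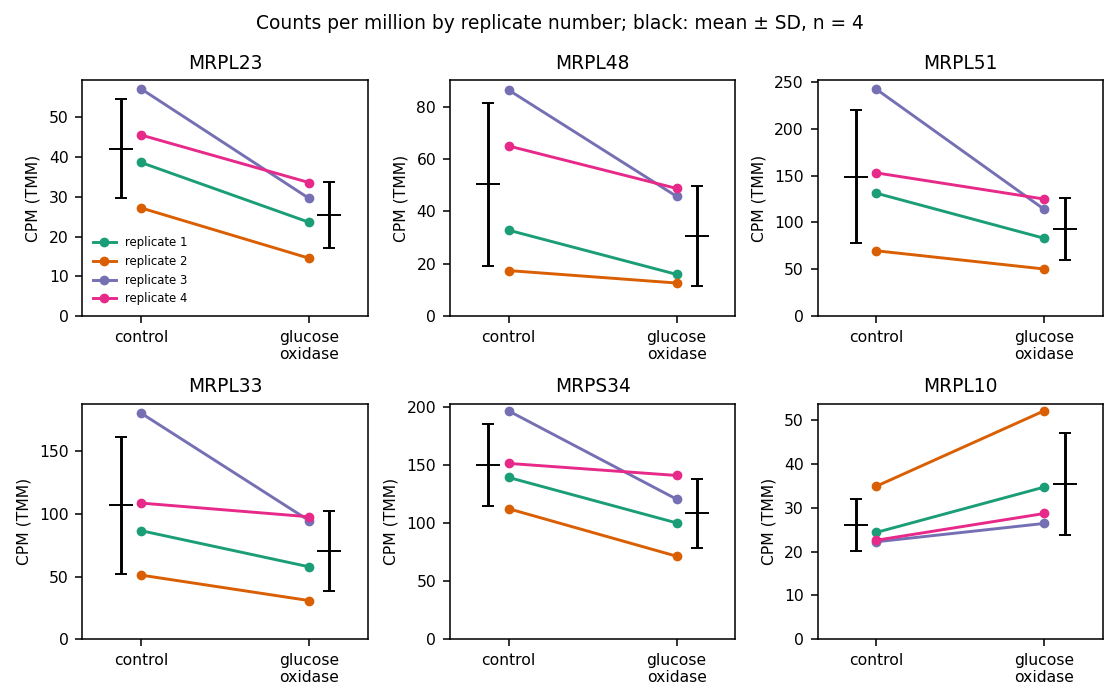
CPM (TMM-scaled, y axis from 0) of 6 genes in control and glucose oxidase cultures, with a coloured line for each replicate number and the mean ± SD of 4 libraries in black. All lines fall for MRPL23, MRPL48, MRPL51, MRPL33 and MRPS34 and rise for MRPL10, while the SD bars of the groups overlap for each gene.

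Libraries of 1 group differed widely. Of the 78 genes, 0 had all 4 treated libraries below all 4 controls, where 2.6% of genes tested did, and 0 had all treated above all controls, where 2.42% did. Compared within pairs, 32 genes were lower in all 4 pairs, against 17.1% of genes tested, and MRPL10, MRPS2 and MRPS27 were higher in all 4, against 16.9%. Of the 21 genes that fell, 20 were lower in all 4 pairs. The exception was MRPL36, at a log2 difference of 0.13 in pair 1. The family's median log2 difference in CPM was -0.16, -0.41, -0.54 and -0.10 in pairs 1 to 4, so pairs 2 and 3 showed the larger falls.

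Summed over the 78 genes, the level was 6782, 5228, 10324 and 7948 CPM in controls against 5999, 4135, 6959 and 7401 CPM after treatment. Controls averaged 7571 ± 2147 CPM and treated cultures 6123 ± 1449 CPM (SD, n = 4 each), and the groups overlap. Control 3 was the highest of the 8 libraries for 59 of the 78 genes and treated 2 the lowest for 55. In both controls 3 and 4, 47 genes were higher than in both controls 1 and 2, where 33% of all genes tested were, and 8 were lower, where 36.3% were. In treated cultures 52 genes were higher and 4 lower by the same measure, and the shares of all genes were not counted there. The family's median log2 ratio of treated 3 and 4 to treated 1 and 2 was 0.56, against -0.05 for all genes tested. The median log2 ratio of controls 3 and 4 to controls 1 and 2 was 0.52 for the family and -0.06 for all genes tested. It reached 1.65 for MRPL48 and 1 or more for 16 genes, and was lowest for MRPL38 (-0.98), MRPS25 (-0.46) and MRPL10 (-0.38).

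The genes also varied together across the 8 libraries. Pearson's r of a gene's log2 CPM with the mean of the other 77 was above 0.8 for 54 of the 78, with 0.994 for MRPS14 and 0.993 for MRPL33, and negative for 8, with -0.93 for MRPL10. The median over all pairs of genes was 0.70. These are descriptions over 8 libraries that share their treatment, replicate number and scaling.

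When the block was replaced by a set term, which separates replicates 1 and 2 from replicates 3 and 4, edgeR called 2 of the 78 genes. MRPL23 (log2 change -0.74, adjusted p 0.0179) and MRPL48 (-0.74, adjusted p 0.0234) were lower, where 3.07% of genes tested were, and no member was higher, where 3.72% were. This division is not in the labels and was known from earlier results of these data. A difference of the change between these sets was called by edgeR for 0.902% of genes tested and for none of the 78, whose smallest adjusted p was 0.368. At an unadjusted p below 0.05 there were 2, MRPL46 and MRPL38, each with a lower change in replicates 1 and 2 than in replicates 3 and 4.

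**Figure D3:**
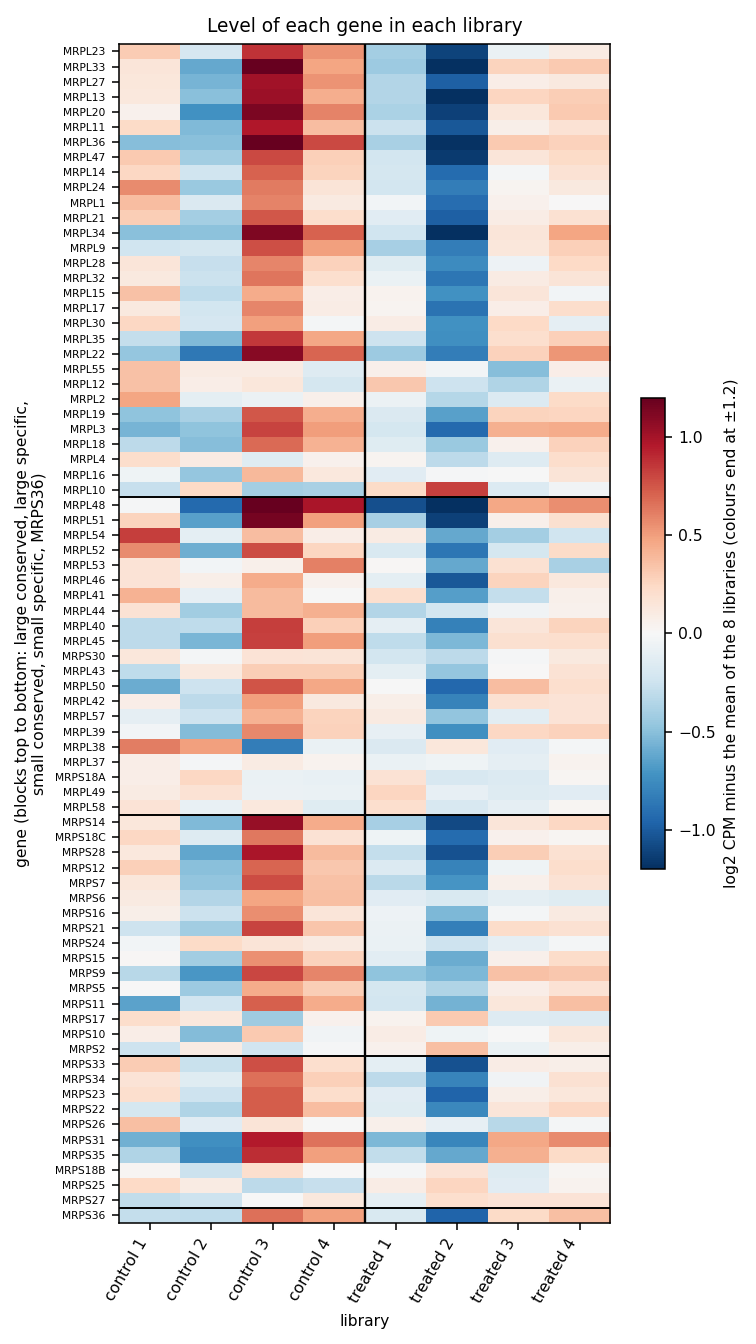
Log2 CPM of each gene (rows, ordered by class and by change) in each library (columns), as the difference from the gene's mean over the 8 libraries, red above and blue below, with colours ending at 1.2 to either side. Control 3 is red and treated 2 blue for most rows, and rows such as MRPL10 and MRPS2 show the opposite.

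The count of genes that fell was sensitive to single pairs and to scaling. The share of all genes called was not counted for these refits. Blocked fits without replicate 1, 2, 3 or 4 left 10, 9, 2 and 20 genes lower. Without replicate 3 only MRPL23 and MRPL48 remained. Total counts as library size, which moved the median of all genes to 0.10, left 6 lower (MRPL23, MRPL48, MRPL51, MRPL33, MRPL54 and MRPL27) and MRPL10 higher with the block, while the family's median stayed below 0 at -0.14. MRPL23 and MRPL48 kept their call in each blocked fit run, and lost it in the fits without a block and in the fit with the set term when replicate 3 was left out.

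Short genes were lower than long genes in this comparison, and these genes are short. By the deposited length, the summed exons of a gene, 64 of the 78 lie in the shorter 5 deciles of the genes tested. By the principal transcript of GENCODE release 29, 35 lie in the shortest decile (up to 1334 bases). In that decile the median log2 change of all genes was -0.28 and 22.8% fell, while the family's 35 genes had a median of -0.40 and 13 fell. Across all genes tested, Spearman's rho of log2 change with length was 0.27 (deposited length, n = 17413) and 0.36 (principal transcript, n = 13806). Within the family it was 0.09 and 0.40 (n = 78). These correlations are across genes, which are not independent replicates. Against the median of their own decile, 61 of 78 genes were lower by deposited length and 55 by transcript length.

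The relation with length was uneven between pairs. Over all genes tested, rho with the principal transcript was 0.31, 0.37, 0.35 and 0.03 in pairs 1 to 4, and pair 4 was also the pair with the family's smallest median difference. With a smooth curve of deposited length taken out of each library and the block kept, 14 genes fell and MRPL10 rose, and the family's median was -0.20. With the principal transcript in place of the deposited length, 6 fell (MRPL23, MRPL48, MRPL51, MRPS14, MRPS33 and MRPS23) and MRPL10 rose. The family's median was again -0.20, and the median over all genes was -0.02 with either length. The share of all genes called was not counted in either fit, so the 14 and the 6 have no background beside them. RNA quality values are not among the files used here, and the part of length in the family's change was not separated further.

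**Figure D4:**
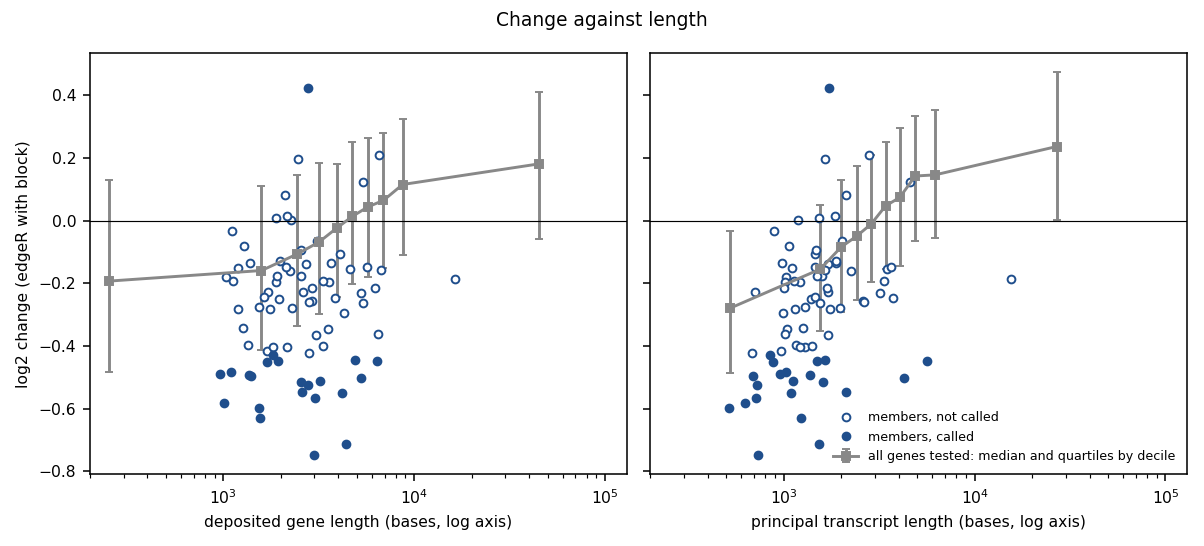
Log2 change (y axis, edgeR with block) against gene length (x axis, bases, log scale) for the deposited length on the left and the principal transcript on the right, with the 78 genes in blue, filled where called. Grey squares and bars give the median and quartiles of all genes tested in each decile of length, and most blue points lie in the short deciles and below the grey line.

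Levels of the 78 genes spanned a wide range. On the deposited FPKM scale, which divides by length, the median over the family was 31.8 (mean of 8 libraries for each gene). The highest was MRPL15, at 204, 127, 226 and 172 FPKM in controls and 166, 95.2, 181 and 158 FPKM in treated cultures. MRPS34 (117 ± 35.8, SD over 8 libraries), MRPL47 (112 ± 42.3) and MRPL39 (103 ± 31.3) followed. MRPL15 was above MRPS34 in every library, whereas MRPS34 and MRPL47, and MRPL47 and MRPL39, changed order between libraries. The order was not tested, and these SD include variation between libraries that the genes share. MRPL47 fell, whereas MRPL15 and MRPL39 were at log2 changes of -0.28 and -0.15 (adjusted p 0.200 and 0.521). The lowest were MRPL38 at 0.80 ± 0.22 FPKM, MRPS24 at 1.34 ± 0.15, MRPL53 at 1.48 ± 0.39 and MRPS17 at 2.05 ± 0.29. These levels rest on the deposited length, which counts every annotated exon. Per kilobase of the principal transcript, 40 of the 78 genes were over 1.5 times higher, and the order at the top was another one. MRPL32 (179 in place of 52.5) and MRPL20 (177 in place of 45.9) then stood above MRPL15 (173), and MRPL33 (170 in place of 57.2) and MRPL21 (169 in place of 40.9) came next. MRPL38 was lowest on both scales, at 1.54 on this one, and MRPL53, MRPS17 and MRPS24 again made up the other lowest genes.

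The 4 lowest genes have in common that 23.2% to 45.2% of their exon bases are shared with another annotated gene. The counting of reads in shared bases and by strand is not stated in the sources used here, so the values of such genes are uncertain. Among 14 genes with 20% or more of their exon bases shared the median level was 10.5 FPKM, and among 44 genes with under 5% shared it was 34.9. Restricting the family to these 44 left 14 lower and MRPL10 higher, with a median log2 change of -0.25. A further 75 rows with an MRPL or MRPS symbol are pseudogenes, which took 227 to 587 counts in all per library. The counts of MRPL46 and MRPS11 come from neighbours on chromosome 15, 33 bases apart on opposite strands, and their log2 changes were -0.36 and -0.15 (adjusted p 0.128 and 0.567).

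**Figure D5:**
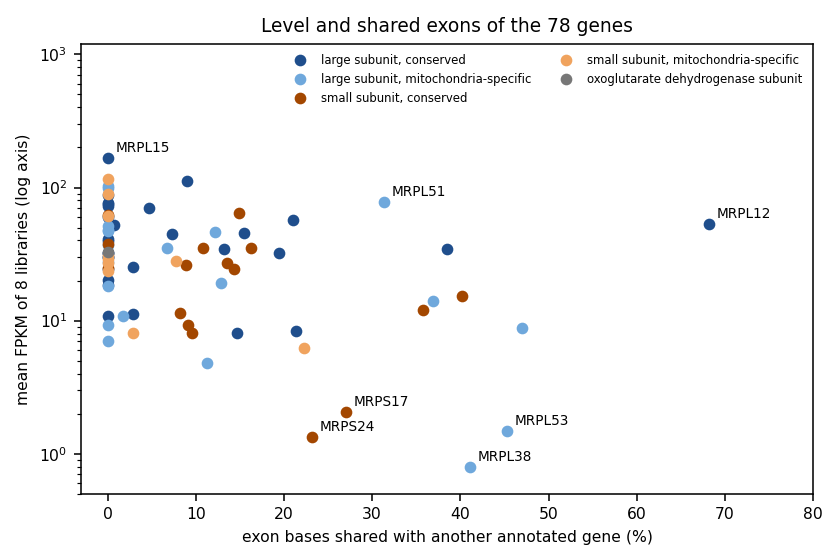
Mean deposited FPKM of 8 libraries (y axis, log scale) against the percent of exon bases shared with another annotated gene (x axis) for the 78 genes, coloured by class. MRPL38, MRPS24, MRPL53 and MRPS17 lie below 3 FPKM with 23.2% or more shared, and MRPL12 has the largest share at 68.2%.

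The mitoribosome also holds proteins whose symbols the rule does not take. Of 5 such genes 2 fell, GADD45GIP1 and CHCHD1. GADD45GIP1, a large-subunit protein, averaged 342 ± 179 CPM in controls and 197 ± 104 CPM after treatment (SD, n = 4 each), and its log2 change was -0.83 ± 0.17 (adjusted p 0.00159). CHCHD1, a small-subunit protein, was at 145 ± 64.1 and 90.6 ± 43.4 CPM, a log2 change of -0.72 ± 0.15 (adjusted p 0.00190). With the set term both stayed below the threshold, at adjusted p of 0.0450 and 0.0422. AURKAIP1, DAP3 and PTCD3 had log2 changes of -0.44, 0.10 and -0.04 (adjusted p 0.0587, 0.693 and 0.891).

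The factors that build and run the mitoribosome were also measured. Of 24 genes for assembly and modification of its RNA 1 fell, METTL17, which helps assemble the small subunit, at 42.8 ± 2.45 CPM in controls and 29.8 ± 5.31 in treated cultures (log2 change -0.54, adjusted p 0.00957). That is 4.17% of the list, below the 6.97% of all genes tested that fell. The set term gave METTL17 an adjusted p of 0.0278. The median of this list was 0.01. Of 16 translation factors and message-binding proteins 2 fell, SLIRP, which stabilises mitochondrial messages with LRPPRC (log2 change -0.48, adjusted p 0.0338), and TSFM, the exchange factor of the elongation factor TUFM (-0.43, adjusted p 0.0390). Both calls were lost with the set term, at adjusted p of 0.210 and 0.0996. The 2 genes are 12.5% of the list, where 6.97% of all genes tested fell. TUFM itself stood at 171 ± 22.5 and 172 ± 16.5 CPM. The difference between these lists and the ribosomal proteins was not tested.

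Among 13 tested genes of mitochondrial transcription and its nuclear regulators, MYC, PPARGC1B and PPRC1 rose and MTERF1 fell. Those that rose are 23.1% of the list, against 7.51% of all genes tested. MTERF1 is 7.69% of it, near the 6.97% of all genes tested that fell. MYC, a growth regulator that drives ribosome genes in many cells, was at 71.0 ± 45.2 CPM in controls and 133 ± 30.7 in treated cultures, a log2 change of 1.07 ± 0.17 (adjusted p 1.9e-04). PPARGC1B and PPRC1, coactivators of the same family as PGC-1alpha, changed by 0.63 and 0.45 (adjusted p 0.0274 and 0.0458), and MTERF1, which binds mitochondrial DNA, by -0.45 (adjusted p 0.0273). With the set term MYC kept its call (adjusted p 0.00906), and PPARGC1B, PPRC1 and MTERF1 lost theirs (adjusted p 0.0654, 0.146 and 0.105). GABPA, NRF1 and YY1, whose letters were searched above, had log2 changes of -0.07, 0.28 and -0.01 (adjusted p 0.817, 0.169 and 0.987).

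Of the 13 messages that the mitoribosome translates, 1 rose, MT-ND4L (log2 change 0.76 ± 0.22, adjusted p 0.0224), and the median log2 change was 0.41. That share, 7.69%, is near the 7.51% of all genes tested that rose, and the call was lost with the set term (adjusted p 0.185). Their median difference was 1.40, 0.60, -0.28 and -0.21 in pairs 1 to 4. A difference of change between replicates 1 and 2 and replicates 3 and 4 was called for 5 of the 13, the smallest adjusted p being 0.00551. All genes on mitochondrial DNA together, not only these 13, took 1.23% of all counts in control 1. They took 2.21% to 2.97% in the other controls and 2.25% to 3.28% in treated cultures. For comparison, 11 of 83 tested cytosolic ribosomal protein genes fell (13.3%), with a median of -0.35. Of 36 tested nuclear genes of complex I, which takes in subunits that the mitoribosome makes, 17 fell (47.2%), with a median of -0.44. Over all genes tested 6.97% fell. With the set term edgeR called 0 of the 83 and 9 of the 36 lower, and 21 and 25 at an unadjusted p below 0.05. The mitochondrial ribosomal protein genes, with 21 of 78 and -0.25, were not tested against either.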

How the data were processed

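Total RNA of 8 libraries was analysed from files the authors deposited. Per the submitters' processing notes the tools were HISAT2 2.0.5, featureCounts 1.5.0-p3 and DESeq2 1.20.0 on GRCh38.p13. The deposited counts are whole reads per gene, not normalised. The deposited FPKM values were scaled by length and depth by the authors. The authors' table gives their log2 fold change, p-value and adjusted p-value, and a signal of size-factor-normalised counts that the authors deposited per library and as group means. Gene length as deposited is the summed exon length in bases.

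Counts were tested with edgeR 4.0.16 in R 4.3.3 (filterByExpr, TMM, glmQLFit and glmQLFTest, Benjamini-Hochberg over 17413 genes, threshold 0.05), and DESeq2 1.42.0 was an alternative. The planned design had the group alone. Pairs were checked from deviations from group means: across genes, libraries of equal number correlated at 0.532, 0.678, 0.590 and 0.503, above the minimum of 0.1. A block on replicate number was therefore fitted as an alternative. The calls, log2 changes and SE in the results are from this alternative unless another fit is named. Control 3 correlated best with treated 4, so the numbers do not pair the libraries cleanly. Equal numbers also lie in the same set (replicates 1 and 2, or 3 and 4), so passing the minimum cannot tell pairs from sets. With the set term in place of the block, 2 of the 22 calls remained. SE and p-values of the blocked fit measure the spread left between cultures once differences between replicate numbers are taken out. For MRPL48 the SE was 0.15 with the block and 0.55 without it. That spread may be partly technical. SE is the size of the log2 change divided by the square root of the F statistic. CPM are TMM-scaled, with a prior count of 2 on the log2 scale for differences within pairs. The CPM of the cell type markers are the exception and were scaled to total counts without TMM. The fits were checked on simulated counts that were drawn with the replicate numbers as pairs. This check cannot show whether the numbers pair the real libraries. The motif letters for YY1 and NRF1 were shortened after a first search.

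Members and lists were chosen with earlier results of these data known. Named genes are up to 8 called members per direction with the smallest adjusted p and 1 sign in all 4 pairs, the 4 highest and 3 lowest by FPKM, members fixed for their known role, a call that is the only one in its direction, and in each other list the called gene of smallest adjusted p per direction. Other genes named were chosen after their values were seen.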

Additional observations from a re-analysis of the deposited data

Results flagged for a closer look

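In 3 cases 1 library of a group of 4 stood far from the other 3, relative to the range of the group, among 70 groups checked (34 named genes and the summed level, in controls and in treated cultures). Chance flags about 1 in 20 such groups. MRPL10, the only gene of the family that rose, was at 34.9 CPM in control 2, against 22.2 to 24.4 CPM in the other controls. MRPS18C was at 38.2 CPM in treated 2, against 70.0 to 74.9 CPM in the other treated cultures. MRPS30 was at 43.2 CPM in control 2, against 48.3 to 49.2 CPM in the other controls.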

How the results depend on the processing

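Without a block or set term, the settings run on all genes called 0 members in either direction. With the replicate block 21 were lower and 1 higher. Lower and higher counts with the block were 25 and 1 in DESeq2, 23 and 1 with RLE scaling, 15 and 0 without a filter on low counts, 6 and 1 with total counts, 14 and 1 with a length offset, 6 and 1 with the offset by principal transcript, and 14 and 1 among members with under 5% shared exon bases. The set term gave 2 and 0. Shares of all genes called were not counted for the altered settings with the block or for the leave-outs. Without replicates 1, 2, 3 and 4 in turn, 10, 9, 2 and 20 were lower with the block and 20, 13, 0 and 2 with the set term, with 0 higher in each. The members with few shared bases and the leave-outs with the set term were chosen after seeing the data. The family's median ran from -0.41 to -0.13 over leave-outs and from -0.29 to -0.14 over the other settings, so its sign held in all of them.

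Small changes of named genes turned sign in some settings, with adjusted p of 0.551 or above. With total counts MRPL58 was at 0.068 (0.077 with the block), and with the block MRPL4 was at 0.0026 and MRPS18A at 0.029. With the length offset MRPL58 was at 0.11 with and without the block, and MRPS18A at 0.056 and, with the block, 0.058. With the offset by principal transcript MRPL39 was at 0.0046, MRPL4 at 0.016, MRPL58 at 0.14 and MRPS18A at 0.082. MRPS18B was at -0.0057 in DESeq2, -0.013 with RLE scaling and -0.0053 with RLE scaling and the block. Without 1 library and without the block, the log2 change ran from -0.33 to 0.13 for MRPL3, -0.41 to 0.0077 for MRPL38, -0.31 to 0.04 for MRPL39, -0.11 to 0.039 for MRPL58, -0.15 to 7e-04 for MRPS18A and -0.071 to 0.079 for MRPS18B. Without 1 replicate number and with the block, the turned values were 0.11 for MRPL38, 0.0075 for MRPL4, 0.003 and 0.035 for MRPL58, 0.059 for MRPS18A and -0.11 for MRPS18B. The causes were not tested. Depth limits the lowest genes, such as MRPL38 and MRPL53, at a few CPM.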
